A study of Saccharomyces cerevisiae BY4741 with 24 samples.

Results

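The nuclear genes for the proteins of the mitochondrial ribosome were followed in budding yeast grown with ample or reduced glucose. The members are the genes whose symbol is MRPL, MRPS, MRP or RSM followed only by a number, without MRP8, which is not a ribosomal protein. This rule gave 65 of the 5449 Saccharomyces cerevisiae genes measured, each on a probe set of its own. It used no measured value. Of the members, 37 belong to the large subunit, 27 to the small subunit, and RSM22 is a methyltransferase-like assembly factor named with the small-subunit proteins. By name and family, 40 have a bacterial counterpart and 24 are known only from mitochondria.

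The study compared caloric restriction, a reduced glucose supply that extends the life span of yeast, with an ordinary culture. The haploid strain BY4741, whose mating type is a, was grown in rich YPD medium with 2% glucose (control) or 0.5% glucose (restricted). Cells were harvested 12, 18, 24 and 48 h after inoculation. The 8 groups each have 3 arrays, described in the labels as biological triplicates, and p-values measure the spread between these cultures. All groups carry the strain's deletions of HIS3, LEU2, MET17 and URA3, and no gene was otherwise altered. Values are deposited log2 signals of Affymetrix Yeast 2.0 arrays.

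Mitochondria keep a small genome that encodes a few core subunits of the respiratory chain and of the ATP synthase. These are made by the organelle's own ribosome, whose RNAs are encoded in the mitochondrion while nearly all of its proteins are nuclear-encoded, made in the cytosol and imported. Yeast that has abundant glucose ferments it and keeps respiratory genes low, and the diauxic shift, when glucose runs out, moves the cells to respiration.

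The strain's labels were checked against marker genes. The a-specific genes MFA1, MFA2, STE2, STE6 and BAR1 lay between 4.6 and 10.78 on all 24 arrays. Of the alpha-specific genes, MF(ALPHA)2 lay between 1.8 and 2.9 and MF(ALPHA)1 between 1.9 and 4.92. STE3, also alpha-specific, was not as low, at 3.2 to 6.0. The ranges of MF(ALPHA)1 and STE3 overlapped with that of BAR1 (4.6 to 8.3). URA3, LEU2 and MET17 reached at most 2.72, beside a 95th percentile of 2.29 for the arrays' Schizosaccharomyces pombe probe sets, meant for another species, and HIS3, only partly deleted in this strain, lay between 4.69 and 5.44. All 65 members had a mean above that percentile. The median SD of a member within a group was 0.079, and of all genes 0.080. The arrays were forced to 1 distribution before deposition, so every difference is relative to the other probe sets. The poly-A spike-ins, control RNAs added to the RNA samples, differed between glucose levels. Restricted minus control at 12, 18, 24 and 48 h was -0.40 ± 0.11, -0.16 ± 0.26, -0.27 ± 0.23 and 0.49 ± 0.16 (SE), with 3 arrays a group. A scale set by these spike-ins moved the median of all genes of restricted minus control from -0.05 to 0.35 after 12 h of growth, from 0.00 to 0.16 after 18 h, from 0.00 to 0.27 after 24 h, but from 0.08 to -0.41 after 48 h. Counts on that scale are given beside the deposited ones for the members where the balance of directions changed. Fits on that scale took each shift as exact, so their counts and adjusted p-values leave out the SE of the spike-ins.

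In ordinary medium the whole set was highest at 12 h and fell together. The median of the 65 members on an array was 8.13, 8.05 and 8.04 in 2% glucose at 12 h, and 7.25, 7.26 and 7.28 at 18 h. It was 7.18, 7.21 and 7.30 at 24 h and 7.2, 7.18 and 7.19 at 48 h. The 12 h arrays stood well above all others, and the 24 h arrays overlapped with those of 18 and of 48 h. Among the groups in 2% glucose alone, every one of the 65 members had its highest mean at 12 h, and 32 had their lowest at 48 h. The arrays measured RNA of whole cultures, so fewer cells that express a gene and less of its RNA per cell cannot be told apart.

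Most of the fall in 2% glucose came between 12 and 18 h. In the limma fit over all 24 arrays, with Benjamini-Hochberg adjustment over all 5449 genes, 65 of the 65 members fell in this step and 0 rose. Of all genes, 37.9% fell and 30.5% rose. The median change of the members was -0.86, with a range of -2.01 to -0.45, beside -0.03 for all genes. At least 2-fold falls were seen in 15 members and in 2.17% of all genes. MRPL20, a mitochondria-specific large-subunit protein, fell by 2.01, MRPL39, the bL33 protein, by 1.5, MRPL32 by 1.45 and MRPL3, which has a ribonuclease III-like fold, by 1.35. MRPL20 read 7.37, 7.13 and 7.13 at 12 h and 5.23, 5.17 and 5.20 at 18 h. The lowest 12 h array was thus far above the highest 18 h array. At the other end MRPL24, the bL28 protein, fell by 0.45 and MRPS18, the uS11 protein, fell by 0.48.

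After 18 h the members in 2% glucose moved little as a set. From 18 to 24 h 7 rose and 11 fell, beside 25.2% and 24.5% of all genes, with a median of -0.06. The median was -0.022 without replicate 1 of the 24 h control group, and 4 rose without replicate 3 of that group. The spike-in scale gave 0 that rose and 53 that fell, beside 6.02% and 67.7% of all genes. From 24 to 48 h 13 rose and 16 fell, beside 31.5% and 30.4% of all genes, with a median of -0.01. By the spike-ins 27 rose and 8 fell, beside 47.3% and 19.5%. This last median turned to 0.04, 0.02 or 0.01 without replicate 3 of the 24 h control group or replicate 2 or 3 of the 48 h control group. Single members still moved: MRPL32 fell by 0.80 and MRPL4 by 0.61 from 24 to 48 h, while MRPL19, the uL11 protein of the stalk base, rose by 0.52 and RSM22 by 0.49.

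**Figure D1:**
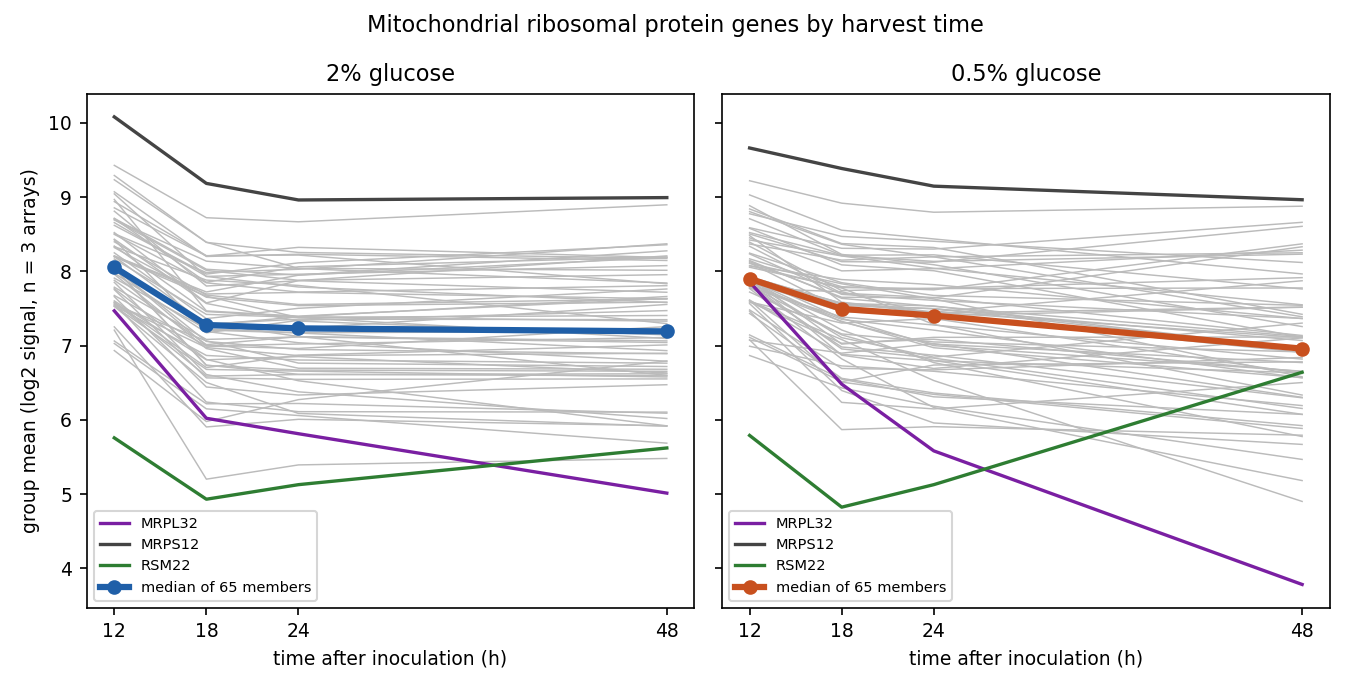
Group means (log2 signal, n = 3 arrays) of the 65 members against hours after inoculation in 2% glucose (left) and 0.5% glucose (right). Grey lines are members, the thick line is their median, and MRPL32, RSM22 and MRPS12 are coloured; levels of different probe sets cannot be set against each other, and the slopes show a fall from 12 to 18 h on both sides and a further fall to 48 h on the right.

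With restricted glucose the members fell by 18 h and again between 24 and 48 h, on the deposited and on the spike-in scale. The array medians were 7.95, 7.92 and 7.87 at 12 h and 7.38, 7.57 and 7.60 at 18 h. They were 7.35, 7.40 and 7.43 at 24 h and 6.97, 6.91 and 7.02 at 48 h. The 12 h and 48 h arrays overlapped with no other time, while the 18 and 24 h arrays overlapped. In this medium 60 members were highest at 12 h and 5 at 48 h, and 45 had their lowest mean at 48 h.

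From 12 to 18 h in 0.5% glucose 64 of the 65 members fell and 0 rose, beside 30.2% and 30.0% of all genes. The median change was -0.49 with a range of -1.38 to -0.05, and 6 members fell at least 2-fold, as 0.936% of all genes did. MRPL32 fell by 1.38, MRPL3 by 1.23, MRPL20 by 1.21 and MRPL11, the uL10 protein that carries the stalk, by 1.17. RSM19, the uS19 protein of the small-subunit head, did not pass the test, with a change of -0.05 and an adjusted p of 0.505. It read 7.86, 7.75 and 7.71 at 12 h and 7.68, 7.79 and 7.71 at 18 h, so these groups overlapped. In 2% glucose the same gene had fallen by 0.49.

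From 18 to 24 h in 0.5% glucose 2 members rose and 19 fell, beside 24.6% and 24.1% of all genes, and the median was -0.11. Replicate 1 of the restricted 18 h group had the lowest median of its group, and without it 37 fell, 1 rose and the median was -0.17. Without replicate 3 of the restricted 24 h group 0 rose. Scaled by the spike-ins, 0 rose and 54 fell, beside 9.45% and 48.1% of all genes.

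From 24 to 48 h 42 of the 65 members in 0.5% glucose fell and 12 rose, beside 39.4% and 45.8% of all genes, with a median of -0.40 and a range of -1.80 to 1.51. The spike-in scale gave 62 that fell and 1 that rose, beside 70.9% and 18.1%. The falls were led by MRPL32 (-1.80), MRPL4 (-1.63), RSM24 (-1.05), a mitochondria-specific small-subunit protein, and MRPL25 (-1.0). RSM22 rose by 1.51, MRPL51 by 0.69 and MRPL33, the uL30 protein, by 0.62 on the deposited scale.

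Over the whole course, from 12 to 48 h, 61 members fell in 2% glucose and 0 rose, beside 41.4% and 38.8% of all genes. The median was -0.94 and 28 fell at least 2-fold, as 6.04% of all genes did. The members that did not pass the test were MRPL19 (-0.14, adjusted p 0.110), MRPL31 (-0.14, 0.0519), RSM22 (-0.14, 0.145) and MRPS18 (-0.02, 0.755). In 0.5% glucose 59 fell and 3 rose, beside 41.1% and 46.8% of all genes. The median was -0.95 and 27 fell at least 2-fold, as 17.6% of all genes did. By the spike-ins 64 fell and 0 rose, beside 77.8% and 14.6%. Both subunits took part. In 2% glucose 35 of 37 large-subunit and 26 of 27 small-subunit members fell, with medians of -0.94 and -0.95. In 0.5% glucose 34 and 25 fell, with medians of -0.94 and -0.96.

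The deepest falls over the course were those of MRPL32, MRPL4 and MRPL7 in both media. Here and below, the highest and lowest members of a comparison were picked among those whose groups did not overlap. Lack of overlap in them follows from that choice. MRPL32, the bL32 protein, is matured by the m-AAA protease before it joins the large subunit. It read 7.48, 7.46 and 7.47 at 12 h in 2% glucose and 5.06, 5.0 and 4.98 at 48 h. In 0.5% glucose it read 7.84, 7.88 and 7.86 at 12 h and 3.68, 3.78 and 3.89 at 48 h. All 48 h arrays lay below all 12 h arrays, with the restricted 48 h arrays lowest of all. The changes were -2.46 ± 0.14 (SE, adjusted p 4.55e-13), or 5.48-fold lower, and -4.08 ± 0.14 (1.19e-17), or 16.9-fold lower.

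MRPL4, the uL29 protein near the exit of the peptide tunnel, read 7.87, 7.69 and 7.75 at 12 h in 2% glucose and 5.91, 5.95 and 5.90 at 48 h. In 0.5% glucose it read 7.70, 7.60 and 7.51 at 12 h and 4.74, 4.91 and 5.06 at 48 h. The 12 h groups overlapped between the media and the 48 h groups did not. The changes were -1.85 ± 0.08 (adjusted p 6.28e-15) and -2.70 ± 0.08 (9.90e-19). MRPL7, the uL5 protein of the central protuberance, changed by -1.83 ± 0.08 (1.08e-14) in 2% glucose and by -2.59 ± 0.08 (3.47e-18) in 0.5% glucose. Its 48 h arrays were 6.16, 5.91 and 5.99 in the control and 5.22, 5.17 and 5.16 in the restricted cultures, again with no overlap.

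The 3 members that rose from 12 to 48 h in 0.5% glucose and passed the test were RSM22, MRPL33 and MRPL51, and none rose on the spike-in scale. MRPS16 (0.10) and MRPL28 (0.07) also had positive changes, which did not pass. RSM22 read 5.75, 5.79 and 5.83 at 12 h and 6.79, 6.59 and 6.54 at 48 h, after a dip to 4.84, 4.70 and 4.93 at 18 h. The groups did not overlap, and the change was 0.85 ± 0.08 (adjusted p 3.33e-09). MRPL33 changed by 0.20 ± 0.06 (0.00292) and MRPL51, a mitochondria-specific large-subunit protein, by 0.20 ± 0.06 (0.00265). The 3 values by the spike-ins were -0.12, -0.77 and -0.77.

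**Figure D2:**
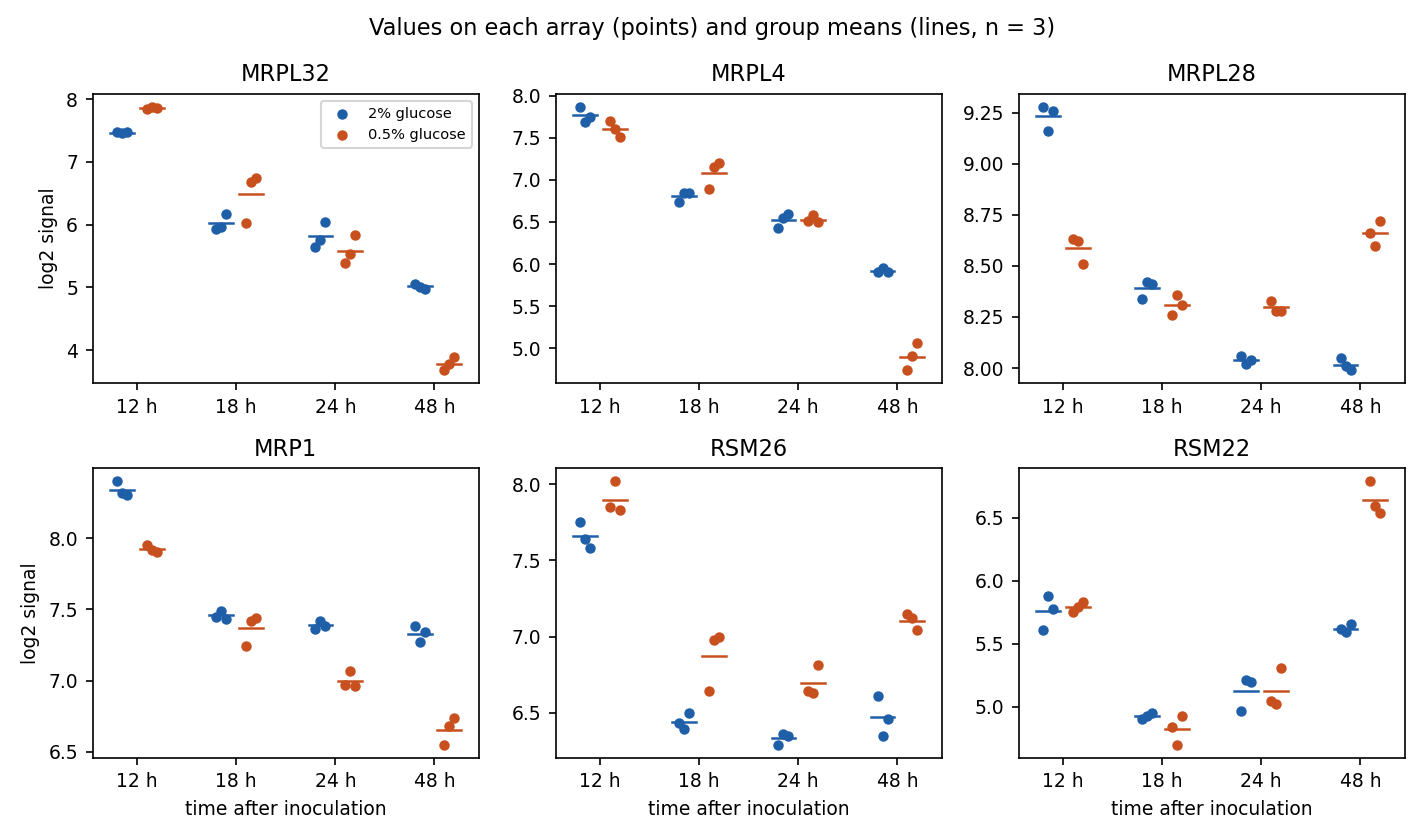
Log2 signal on every array (points) and group means (lines, n = 3) of 6 members against hours after inoculation, 2% glucose in blue and 0.5% glucose in orange. MRPL32 and MRPL4 end lowest in 0.5% glucose at 48 h, and MRP1 ends lower and RSM26 higher there than in 2% glucose. MRPL28 changes sides between 12 and 48 h, and RSM22 has its own highest values in 0.5% glucose at 48 h.

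At 12 h the members were on balance slightly lower with restricted glucose on the deposited scale, a direction that turned on the spike-in scale. Of the 65, 34 were lower and 6 higher, beside 41.2% and 32.2% of all genes, and the median difference of restricted minus control was -0.15, with a range of -0.65 to 0.50, beside -0.05 for all genes. Without replicate 1 of the control group 10 were higher. The spike-in scale gave 45 higher and 3 lower, beside 69.3% and 11.6% of all genes, with a median of 0.25. Large-subunit members gave 19 lower and 4 higher of 37, and small-subunit members 15 lower and 2 higher of 27, with medians of -0.17 and -0.15.

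The member farthest below the control at 12 h was MRPL28, a mitochondria-specific large-subunit protein. It read 9.28, 9.16 and 9.26 in 2% glucose and 8.63, 8.62 and 8.51 in 0.5% glucose. Every restricted array was below every control array, and the difference was -0.65 ± 0.05 (SE, adjusted p 3.14e-11). MRPL50, the bL9 protein, read 8.39, 8.39 and 8.48 against 7.79, 7.93 and 7.74, a difference of -0.60 ± 0.07 (7.29e-08). MRPS5, the uS5 protein of the small-subunit body, read 7.49, 7.61 and 7.58 against 6.99, 7.07 and 6.92, a difference of -0.57 ± 0.06 (2.84e-08). Neither gene's groups overlapped, as the choice of members required.

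The 6 higher members at 12 h were MRPL11, MRPL32, MRPL27, RSM26, RSM19 and MRPL9. MRPL11 read 7.11, 7.07 and 7.0 in 2% glucose and 7.62, 7.55 and 7.52 in 0.5% glucose, with no overlap. The difference was 0.50 ± 0.08 (adjusted p 1.38e-05). MRPL32 differed by 0.39 ± 0.14 (0.0146) and MRPL27, a mitochondria-specific large-subunit protein, by 0.33 ± 0.09 (0.00282), from 7.61, 7.54 and 7.61 to 7.94, 7.90 and 7.90. Values within each medium were tight for both genes.

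At 18 h the members were on balance higher with restricted glucose, on the deposited and on the spike-in scale. This was the opposite of 12 h on the deposited scale only, since the spike-in scale had them higher at both times. With restricted glucose 38 members were higher and 2 lower, beside 25.5% and 24.8% of all genes. The median difference was 0.20, with a range of -0.33 to 0.67, beside 0.00 for all genes. The higher count was 29 without replicate 2 of the restricted group and 46 without replicate 1 of that group. On the spike-in scale 53 were higher and 1 lower, beside 51.4% and 10.6%, with a median of 0.36. Large-subunit members gave 24 higher and 1 lower, and small-subunit members 14 higher and 1 lower.

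MRPL20 read 5.23, 5.17 and 5.20 in 2% glucose at 18 h and 5.6, 6.01 and 5.99 in 0.5% glucose, a difference of 0.67 ± 0.10 (adjusted p 1.11e-05). RSM19 read 7.02, 7.11 and 7.05 against 7.68, 7.79 and 7.71, a difference of 0.66 ± 0.06 (1.49e-08). MRPL19 read 5.97, 6.01 and 5.95 against 6.41, 6.63 and 6.50, a difference of 0.54 ± 0.08 (1.09e-05). None of the 3 overlapped between the media, as their choice required, and replicate 1 of the restricted group was the lowest of its group in each. The 2 lower members were MRPL24, with -0.33 ± 0.06 (2.84e-04), and MRPS5, with -0.25 ± 0.06 (0.00193), which did not pass on the spike-in scale.

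At 24 h 27 members were higher and 13 lower with restricted glucose, beside 31.6% and 31.4% of all genes. The median difference was 0.13, with a range of -0.39 to 0.65, beside 0.00 for all genes. The higher count was 19 without replicate 3 of the restricted group and 32 without replicate 3 of the control group. Scaled by the spike-ins, 51 were higher and 0 lower, beside 64.2% and 12.4%, with a median of 0.39. RSM19 remained among the higher members, with 6.73, 6.75 and 6.80 against 7.38, 7.42 and 7.43 and a difference of 0.65 ± 0.06 (adjusted p 6.02e-09). MRPL38, the uL14 protein at the interface to the small subunit, read 7.81, 7.88 and 7.95 against 8.33, 8.47 and 8.42, a difference of 0.53 ± 0.05 (2.65e-08). MRPL20 differed by 0.52 ± 0.10 (1.15e-04). These groups did not overlap, as the choice of members required.

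Below the control at 24 h was MRP1, a small-subunit protein related to iron and manganese superoxide dismutases. It read 7.36, 7.42 and 7.38 in 2% glucose and 6.97, 7.07 and 6.96 in 0.5% glucose, a difference of -0.39 ± 0.06 (adjusted p 3.02e-06). MRPL25 differed by -0.35 ± 0.06 (5.82e-05), with 7.12, 7.07 and 7.18 against 6.69, 6.74 and 6.89. MRPS18 differed by -0.34 ± 0.06 (3.82e-05), with 7.95, 7.87 and 8.02 against 7.53, 7.65 and 7.65. The restricted arrays were lower in every case, though on the spike-in scale none of the 3 passed the test.

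**Figure D3:**
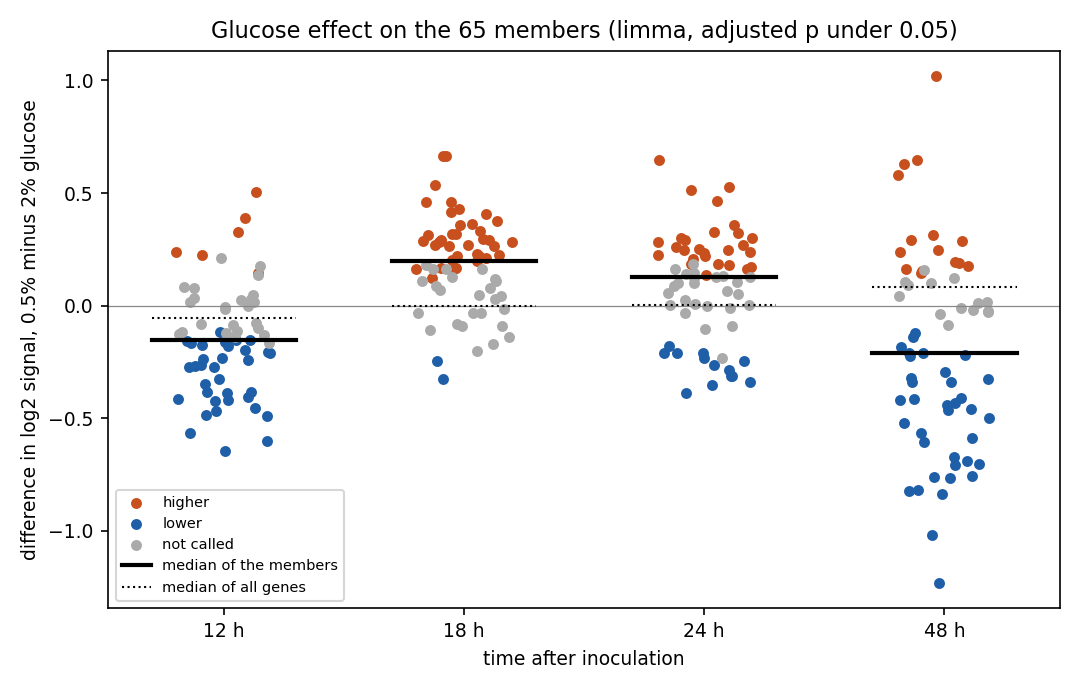
Difference in log2 signal, 0.5% minus 2% glucose, for each of the 65 members (points) at 12, 18, 24 and 48 h, coloured by the call in limma at an adjusted p under 0.05. The solid bar is the members' median (-0.15, 0.20, 0.13 and -0.21) and the dotted bar that of all genes, and the points spread most widely at 48 h.

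At 48 h the members split on the deposited scale, while nearly all were lower with restricted glucose on the spike-in scale. With restricted glucose 36 were lower and 15 higher, beside 37.8% and 46.0% of all genes, and 14 did not pass the test. The median difference was -0.21, with a range of -1.23 to 1.02, beside 0.08 for all genes. The spike-in scale gave 60 lower and 2 higher, beside 65.4% and 19.4%, with a median of -0.70. Of the 37 large-subunit members 21 were lower and 9 higher, and of the 27 small-subunit members 15 were lower and 5 higher, with medians of -0.21 and -0.22. Among large-subunit proteins with a bacterial counterpart 15 of 23 were lower and 4 higher, with a median of -0.34. Among the mitochondria-specific ones 6 of 14 were lower and 5 higher, with a median of 0.04. The difference between these classes was not tested.

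The lower members at 48 h were led by MRPL32, whose arrays differed by -1.23 ± 0.14 (adjusted p 3.02e-08), or 2.35-fold. MRPL4 differed by -1.02 ± 0.08 (7.25e-11), or 2.02-fold, and MRPL7 by -0.84 ± 0.08 (3.26e-09). Further down the order were MRPL25 (-0.82), MRPS18 (-0.82), MRP4, the uS2 protein (-0.77), RSM23, a relative of human DAP3 (-0.76), and MRPL36, the bL31 protein (-0.76). MRPL25 read 6.59, 6.56 and 6.65 in 2% glucose and 5.77, 5.76 and 5.79 in 0.5% glucose. Its arrays were far apart between the media and close within each.

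The higher members at 48 h were led by RSM22, at 5.62, 5.59 and 5.66 in 2% glucose and 6.79, 6.59 and 6.54 in 0.5% glucose. The difference was 1.02 ± 0.08 (adjusted p 2.29e-10), or 2.03-fold. MRPL28 read 8.05, 8.01 and 7.99 against 8.66, 8.60 and 8.72, a difference of 0.65 ± 0.05 (1.29e-11). RSM26 read 6.61, 6.35 and 6.46 against 7.15, 7.12 and 7.04, a difference of 0.63 ± 0.08 (3.61e-07). No group overlapped with its counterpart, as the choice of members required, and RSM26 no longer passed on the spike-in scale. RSM26 and MRP1 are both related to superoxide dismutases and sit in the small subunit, yet they lay on opposite sides: MRP1 differed by -0.67 ± 0.06 (1.87e-10), with 7.38, 7.27 and 7.34 against 6.55, 6.68 and 6.74.

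**Figure D4:**
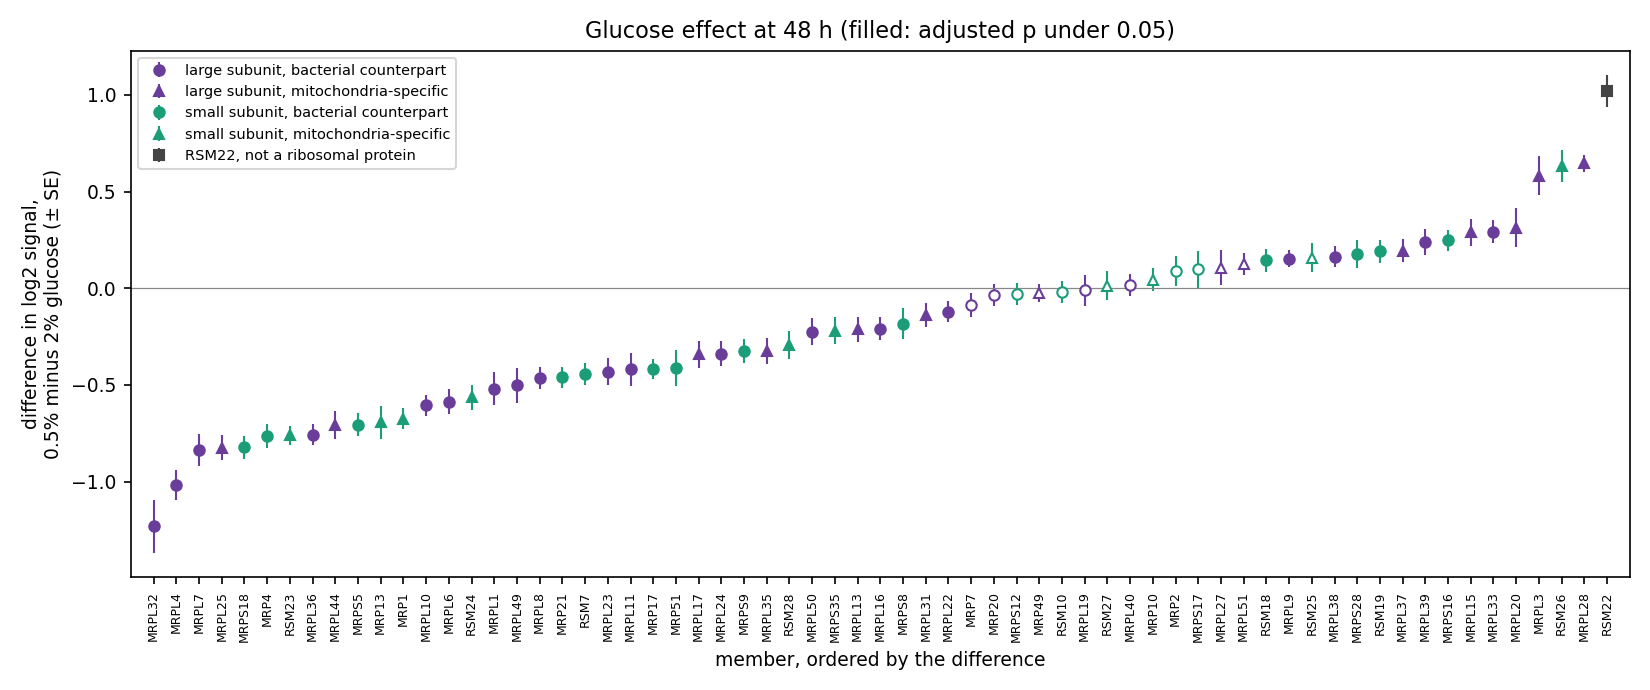
Difference in log2 signal at 48 h, 0.5% minus 2% glucose (± SE, n = 3 arrays a group), for the 65 members in order of the difference. Colours mark the subunit, shapes the class and filled symbols an adjusted p under 0.05; MRPL32 (-1.23) stands at the low end and RSM22 (1.02) at the high end.

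The glucose effect differed between times, as interaction terms of the same fit measured it. An F test over the 4 times called 62 of the 65 members, close to the 91.7% of all genes called. The members not called were MRPS28, the uS15 protein (adjusted p 0.0533), MRPL27 (0.322) and MRPL24 (0.414). From 12 to 18 h the effect rose in 50 members and fell in 1, beside 32.5% and 24.5% of all genes, with a median of 0.35. It was 0.80 for MRPL20, 0.76 for MRPL50, 0.65 for MRPL1, the uL1 protein, and 0.62 for MRPS12, the uS12 protein of the decoding centre. On the spike-in scale it rose in 16 and fell in 4, beside 12.6% and 46.7%, with a median of 0.11. The count that fell was 0 when any of several arrays was left out, replicate 3 of the 12 h control group among them, and 2 without replicate 2 of the restricted 18 h group.

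From 18 to 24 h the effect rose in 1 member and fell in 9, beside 13.7% and 14.1% of all genes, with a median of -0.07. Without replicate 1 of the restricted 18 h group it fell in 18, with a median of -0.15, and without replicate 1 of the control 18 h group or replicate 3 of the control 24 h group it rose in 2. By the spike-ins it rose in 4 and fell in 3, beside 26.8% and 8.13%, and the median turned to 0.04. From 24 to 48 h it rose in 9 and fell in 42, beside 39.5% and 35.2% of all genes, with a median of -0.35. Scaled by the spike-ins, it rose in 1 and fell in 64, beside 7.95% and 77.9%. The falls were led by MRPL4 (-1.02), MRPL32 (-1.0) and RSM24 (-0.86), and RSM22 rose by 1.02.

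Between the ends of the course, at 48 h against 12 h, the effect rose in 18 members and fell in 23, beside 43.8% and 36.1% of all genes. The median was -0.03, and 0.00 without replicate 1 of the restricted 12 h group. On the spike-in scale it rose in 1 and fell in 61, beside 9.43% and 77.4%. MRPL28 changed from -0.65 to 0.65, a difference of 1.29 ± 0.06 (SE, adjusted p 5.53e-14), or 0.40 on the spike-in scale. MRPL32 went the other way, from 0.39 to -1.23, a difference of -1.62 ± 0.19 (1.13e-07). MRPL11, above the control at 12 h, had a difference of -0.92 ± 0.12 (2.85e-07). These members were picked as extremes of the effect at 12 or 48 h, which favours large changes between those times.

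Members resembled one another in the course over the 8 groups to different degrees. The likeness is Pearson's r between a member's 8 group means and the median of the other 64 members. A member and the median of the others come from the same arrays and share the normalization, and the values are a description only. The median r was 0.902, with 33 members above 0.9 and 47 above 0.8. The closest were MRPL16, the uL16 protein (0.995), MRPL1 (0.995) and MRPL49, the bL21 protein (0.993). MRPL1 read 8.15, 7.98 and 8.0 in 2% glucose at 12 h, 6.72, 6.74 and 6.75 at 18 h, and 6.58, 6.59 and 6.61 at 48 h. In 0.5% glucose it went from 7.86, 7.84 and 7.71 at 12 h to 6.03, 6.12 and 6.07 at 48 h. MRPL1 thus followed the course of the median: a drop by 18 h in both media and the lowest arrays in restricted cultures at 48 h. Not all members shared that end: 36 had their lowest mean in restricted cultures at 48 h. The others were lowest in other groups, 10 of them in 2% glucose at 18 h.

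The least alike were RSM22 (-0.067), MRPL51 (0.300) and MRPS16, the bS16 protein (0.357). MRPL51 read 8.64, 8.50 and 8.43 in 2% glucose at 12 h, 7.58, 7.59 and 7.56 at 18 h, and 8.22, 8.23 and 8.18 at 48 h. In 0.5% glucose it went from 8.14, 8.14 and 8.12 at 12 h through 7.56, 7.69 and 7.70 at 18 h to 8.38, 8.23 and 8.38 at 48 h. It dropped by 18 h like the others and then came back. MRPS16 likewise read 8.64, 8.64 and 8.58 at 12 h, 7.97, 7.97 and 7.95 at 18 h and 8.39, 8.35 and 8.34 at 48 h in 2% glucose, and its 48 h arrays in 0.5% glucose were 8.63, 8.57 and 8.62. Outside the set, the courses nearest to the median of the members were those of FMC1 (0.990), TIM9 (0.988), ECM19 (0.987), MRF1 (0.986) and MNP1 (0.986).

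Mitoribosomal proteins with other symbols, which the rule leaves out, were measured for 14 genes. From 12 to 48 h 14 fell in 2% glucose with a median of -0.98, and in 0.5% glucose 12 fell and 1 rose with a median of -1.08, beside falls in 41.4% and 41.1% of all genes. With restricted glucose 11 were lower and 0 higher at 12 h, beside 41.2% and 32.2% of all genes, where the spike-in scale turned the direction to 9 higher and 1 lower. At 18 h 8 were higher and 1 lower, beside 25.5% and 24.8%. At 48 h 7 were lower and 2 higher, beside 37.8% and 46.0%, and the spike-in scale gave 14 lower and 0 higher. MNP1, the bL12 protein of the stalk, fell by 1.59 in 2% glucose and by 2.17 in 0.5% glucose over the course. EHD3, which is related to acyl-CoA hydrolases, differed between restricted and control cultures at 48 h by -1.44 ± 0.05 (adjusted p 2.80e-17).

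The factors that work with the ribosome moved in varied ways. From 12 to 48 h 41.4% of all genes fell and 38.8% rose in 2% glucose, and 41.1% fell and 46.8% rose in 0.5% glucose. Of 9 mitochondrial translation factors 7 fell from 12 to 48 h in each medium and 0 rose, with medians of -0.67 and -1.12, among them TUF1, the elongation factor that delivers tRNAs (-1.37 and -1.73), and MRF1, the release factor (-1.5 and -1.77). Of 14 mitochondrial tRNA synthetase genes 13 fell in 2% glucose, and 12 fell and 1 rose in 0.5% glucose. MSF1, the phenylalanyl-tRNA synthetase, changed by -2.27 and -3.99. Of 10 assembly and transcription factors 6 fell and 3 rose in 2% glucose, and 6 fell and 4 rose in 0.5% glucose, or 9 and 1 on the spike-in scale. RPO41, the mitochondrial RNA polymerase, rose there by 1.13, or by 0.16 on the spike-in scale. Of 18 translational activators and membrane insertion factors 14 fell and 1 rose in 2% glucose, and 9 fell and 7 rose in 0.5% glucose, or 18 and 0 on the spike-in scale. PET309, an activator of COX1 translation, was higher in restricted cultures at 48 h by 1.02 ± 0.09 (adjusted p 6.79e-10), and PET494, an activator of COX3 translation, differed by -0.72 ± 0.05 (8.97e-12).

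Genes of the respiratory chain, the ATP synthase and the cytosolic ribosome gave other values. Of 35 nuclear genes of the respiratory chain and the ATP synthase 27 fell and 0 rose from 12 to 18 h in 2% glucose, beside 37.9% and 30.5% of all genes. Their median was -0.20, where the 65 members had -0.86. At 48 h 34 of the 35 were lower and 0 higher with restricted glucose, beside 37.8% and 46.0%, with a median of -0.96, where the members had -0.21. Of 127 cytosolic ribosomal protein genes 125 rose and 0 fell from 12 to 18 h in 2% glucose, with a median of 1.03. In that step the members all fell. At 12 h 127 of the 127 were higher with restricted glucose, beside 32.2% of all genes, with a median of 1.48. Differences between these lists and the members were not tested.

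**Figure D5:**
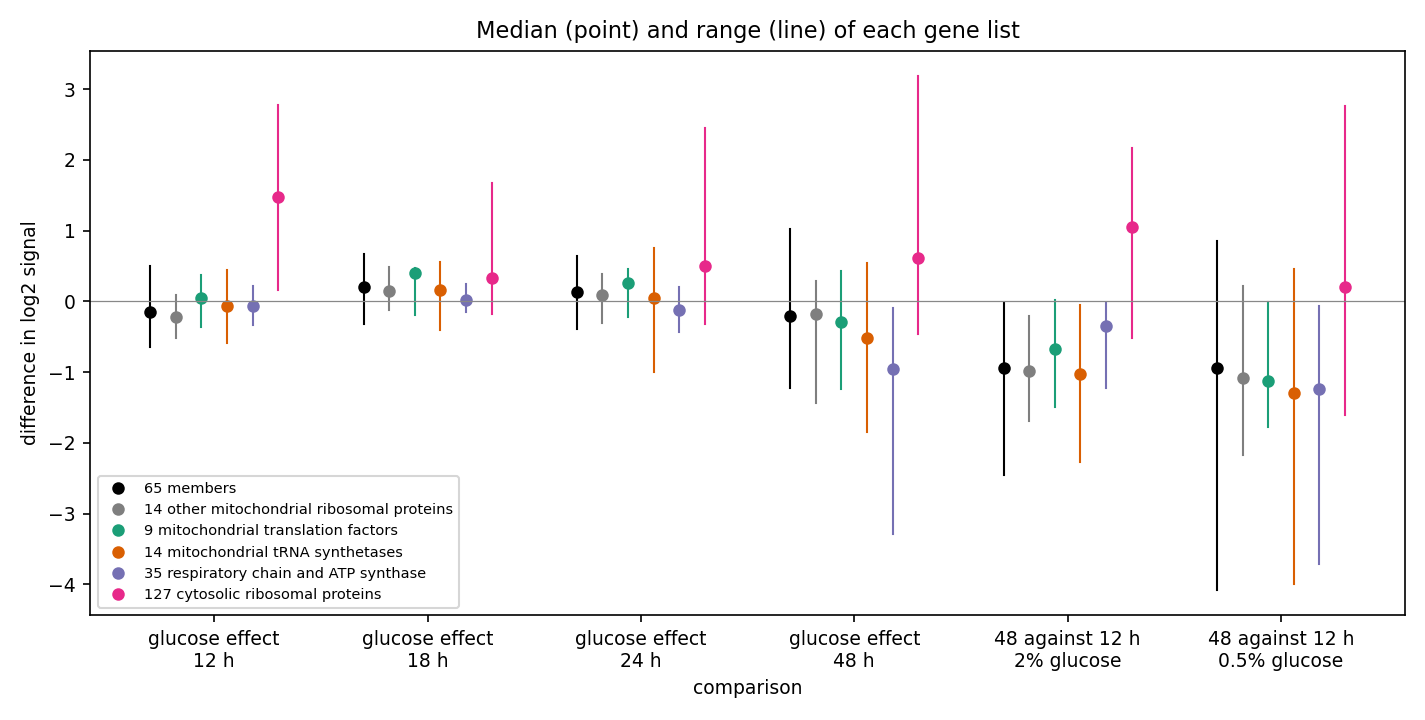
Median (point) and range (line) of the difference in log2 signal for the 65 members and 5 gene lists in the 4 glucose comparisons (0.5% minus 2% glucose) and in 48 h against 12 h within each medium. Cytosolic ribosomal proteins are at 1.48 at 12 h where the members are at -0.15, and respiratory chain genes are at -0.96 at 48 h where the members are at -0.21.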

How the data were processed

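RNA of 24 yeast cultures was hybridized to Affymetrix arrays. Per the labels' protocols, TRIzol was used for extraction and 250 ng of total RNA for each biotinylated cRNA. The deposited log2 values, from 0.60 to 12.57 over 10928 probe sets, have nearly the same distribution on every array (largest difference between sorted columns 0.0095), as quantile normalization leaves them. No label records that step. The submitters' processing notes name Partek, without a role. The logarithm's base was taken to be 2 from the range of the values. Background correction and probe summarization are not stated, and array dates were not given in the sources used here.

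Of 7245 annotated probe sets 7244 have 1 gene, 1 has several, and 3683 probe sets have none. The 5498 for Saccharomyces cerevisiae gave 5449 genes. For 47 genes with several, the probe set with the highest mean was used, and 12 symbols were updated through RefSeq. The 1746 Schizosaccharomyces pombe probe sets gave the background, and 12 poly-A spike-in probe sets an alternative scale. Signal over background limits the dimmest genes: in 5396 genes at least 1 group mean exceeded the background's 95th percentile. The precision is limited by 3 arrays a group, with a median SE of 0.064 for a difference of the members.

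Groups were compared with limma 3.58.1 in R 4.3.3 in 1 fit of group means over 24 arrays, with Benjamini-Hochberg adjustment over all genes within each comparison and a threshold of 0.05. Fits were tested on simulated data. Tables were made with pandas 2.3.3 and numpy 2.4.6 in python 3.11.15, and figures with matplotlib 3.10.9. Lists are described by counts and medians, with no test of their own. The members and lists were chosen with earlier results of these data known. Values on every array are given mainly for the 3 highest and 3 lowest members of a comparison among those past the threshold whose groups do not overlap, and for the 3 most and least like the median. Further members were named after their values were seen. Same-numbered samples deviated together in some comparisons, with every correlation over 0.1. These were 12 h (0.109 to 0.212), 18 h (0.229 to 0.364) and 24 h (0.117 to 0.368) between the media. The step from 12 to 18 h in 2% glucose (0.148 to 0.456) was another. In the other comparisons the lowest correlation was under 0.1. In some of those all were still positive, as at 48 h between the media (0.0724 to 0.156). The labels give the numbers no meaning. The alternatives were other scalings, a filter on dim probe sets, averaging the probe sets of a gene, another variance model, fewer arrays in the fit, the replicate number as a block, and leaving out each array. No reference sequence was used here.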

Additional observations from a re-analysis of the deposited data

Results flagged for a closer look

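The values here are differences of the glucose effect (0.5% minus 2% glucose) between times, tested as interaction terms of the limma fit. The F test over the 4 times called 62 of the 65 members, near the 91.7% of all genes. Between 12 and 18 h the effect rose in 50 members and fell in 1, beside 32.5% and 24.5% of all genes, and the spike-in scale gave 16 and 4. Between 18 and 24 h it rose in 1 and fell in 9, beside 13.7% and 14.1%, and the spike-in scale gave 4 and 3. Between 24 and 48 h it rose in 9 and fell in 42, beside 39.5% and 35.2%, and the spike-in scale gave 1 and 64. Between 12 and 48 h it rose in 18 and fell in 23, beside 43.8% and 36.1%, and the spike-in scale gave 1 and 61.

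For the 10 members named by rule in the 12 h or the 48 h glucose comparison, the change of the effect from 12 to 48 h was tested one by one. These members were picked as extremes of the same effects whose difference was tested. The choice thus favours large changes, and the adjusted p-values do not account for it. It was 1.29 for MRPL28 and 0.40 on the spike-in scale. For RSM22 it was 0.99, but on the spike-in scale 0.095, with an adjusted p of 0.459. RSM26 (0.39) and MRPL50 (0.38) turned to -0.50 and -0.51 on that scale. The change was negative on both scales for MRPL32 (-1.62 and -2.51), MRPL11 (-0.92 and -1.81), MRPL4 (-0.85 and -1.74) and MRPL7 (-0.75 and -1.64). MRPS5 (-0.14) and MRPL27 (-0.22) did not pass the test on the deposited scale. On the spike-in scale these 2 values were -1.03 (adjusted p 1.98e-10) and -1.11 (4.37e-08). Members outside these 10 also changed, as the counts show, among them MRPS18 (-0.85) and MRPL25 (-0.66), which were picked out after their values were seen. Groups of 3 arrays are too small for a test of single outlying arrays.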

How the results depend on the processing

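The scale set by the poly-A spike-ins moved the results most, and the cause was not tested. Its counts leave out the error of the spike-ins themselves. Under it the members higher and lower with restricted glucose, and their median, became 45, 3 and 0.25 at 12 h, 53, 1 and 0.36 at 18 h, 51, 0 and 0.39 at 24 h and 2, 60 and -0.70 at 48 h. From 12 to 48 h the median became -1.02 in 2% glucose, and -1.92 with 0 higher in 0.5% glucose. In the latter RSM22, MRPL33 and MRPL51 were at -0.12, -0.77 and -0.77. Higher, lower and median became 0, 53 and -0.31 from 18 to 24 h in 2% glucose, 0, 54 and -0.26 in 0.5% glucose, 27, 8 and 0.11 from 24 to 48 h in 2% glucose, and 1, 62 and -1.04 in 0.5% glucose. The median from 12 to 18 h in 0.5% glucose became -0.68. Differences of the glucose effect became 1, 61 and -0.92 for 48 against 12 h, 16, 4 and 0.11 for 18 against 12 h, 4, 3 and 0.037 for 24 against 18 h, and 1, 64 and -1.10 for 48 against 24 h.

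Under the settings other than this scale and leaving out arrays, 342 of 343 counts and medians kept their direction and size, and the exception was the count that fell in 18 against 12 h, which was 0 with only the arrays compared. All 416 values of named members outside the spike-in scale kept their side of the threshold. With the replicate block 34 members were lower at 12 h, 40 higher at 18 h, 27 higher at 24 h and 36 lower at 48 h, and it changed no call of a named member. Without the 48 h arrays, a setting chosen after seeing the data, the F test called 51 members and 70.7% of all genes.

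Leaving out each array in turn gave 5 to 10 members higher at 12 h, 29 to 46 at 18 h and 19 to 32 at 24 h. The medians were 0.16 to 0.26 at 18 h, 0.088 to 0.16 at 24 h and -0.53 to -0.41 from 12 to 18 h in 0.5% glucose. From 18 to 24 h it gave 4 to 10 higher and medians of -0.083 to -0.022 in 2% glucose and, in 0.5% glucose, 0 to 3 higher, 14 to 37 lower and medians of -0.17 to -0.057. The median from 24 to 48 h in 2% glucose ran from -0.060 to 0.035. For differences of the glucose effect it gave 0 to 2 lower and medians of 0.32 to 0.41 (18 against 12 h), 1 to 2 higher, 7 to 18 lower and medians of -0.15 to -0.031 (24 against 18 h), and medians of -0.072 to 0.0032 (48 against 12 h). In all, 360 of 384 such counts and medians kept their direction and size, and the F test called 59 to 63.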
